A study of Mus musculus with 6 samples.

Results

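The difference between the OHT response of FLICs and that of embryonic stem (ES) cells was described gene by gene in the mouse. For each gene, the change with OHT in ES cells was subtracted from the change with OHT in FLICs, on a log2 scale of CPM, read counts scaled to a common library size. Genes were kept when they reached 1 CPM in at least 1 FLICs library and in at least 1 ES cell library, so that both responses could be measured. This left 11217 of the 22600 genes in the table. A further 1979 genes reached 1 CPM in ES cells alone and 749 in FLICs alone, and have no response difference here.

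All cells were of C57BL/6 background, grown for 96 h. ES cells and FLICs, which the labels describe as cells differentiated from ES cells, were each left untreated, with the genotype given as wild-type, or received 3 days of OHT (hydroxytamoxifen, which switches on Cre fused to an oestrogen receptor), with the genotype given as TRF2-/-. There were 2 libraries each of untreated ES cells (titles ESC and ESC2) and of OHT-treated ES cells, and 1 library each of untreated and OHT-treated FLICs. The untreated cells received no OHT and the labels name no cells that received OHT while keeping TRF2, so OHT and the loss of TRF2 cannot be told apart. How Terf2 was deleted, whether ESC and ESC2 are separate clones or cultures, and how FLICs were derived are not stated in the labels, so p-values measure the spread between these libraries, which may be technical.

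TRF2, encoded by Terf2, is a subunit of shelterin, the protein complex that coats telomeres. In somatic cells its removal exposes chromosome ends to the DNA damage kinase ATM and to end joining, and p53 then stops the cell cycle. ES cells are pluripotent cells kept in a naive state by transcription factors such as Nanog, Klf4 and Pou5f1, and differentiation first takes them through a primed state like that of the later epiblast.

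Total counts ran from 23534551 to 43965309 per library. Levels are given untreated first and then with OHT, with replicates in order. Terf2 (ENSMUSG00000031921, chromosome 8, 107069400 to 107096547, GRCm38, minus strand), itself one of the genes kept, followed the labels. It read 18.3 and 19.5, then 0.281 and 0.392 CPM in ES cells, and 8.27, then 0.114 CPM in FLICs. Naive pluripotency markers reached 1 CPM in 23 of 23 genes in each ES cell library, and in 13 and 12 of 23 in untreated and OHT-treated FLICs. Fibroblast and matrix markers reached it in 34 of 37 genes in both FLICs libraries and in 13 to 20 in ES cells, and smooth muscle markers in 17 of 18 and in 9 to 14. The OHT-treated ES cell libraries stood apart from each other: over the 11217 genes their median absolute difference in log2(CPM + 1) was 0.258, against 0.102 between the untreated ones. No gene differed by 1 or more within the untreated pair, and 317 did within the OHT-treated pair.

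Unless edgeR is named, each value below is a difference in log2(CPM + 1), OHT minus untreated. For ES cells it is given as the range of 4 differences, each OHT-treated library minus each untreated one. The FLICs difference comes from 1 library per condition. It has no replicate check, and its position above, inside or below the 4 ES cell differences is a description, since those share libraries. "FLICs minus ES" is the FLICs difference minus the difference of the ES cell means.

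Differences with OHT were mostly small in FLICs, and more of them lay above the ES cell differences than below. The median absolute difference with OHT was 0.141 in FLICs and 0.204 to 0.282 in the 4 ES cell pairings, and 39 genes (0.348%) differed by 1 or more in FLICs against 215 to 351 in those pairings and 119 (1.06%) in the ES cell means. The FLICs difference was above 0 for 55.6% of genes and the ES cell mean difference for 38.2%. The FLICs difference lay above all 4 ES cell differences for 4436 genes (39.5%), below all 4 for 2135 (19%) and inside their range for 4646 (41.4%). That split moved with the scaling: with library totals in place of trimmed mean (TMM) factors, 24.7% lay above and 30.9% below. The median FLICs minus ES over all genes was 0.12 with TMM factors, 0.04 with relative log expression factors and -0.02 with library totals, a shift of over 0.1. The threshold of 1 CPM also bears on direction: 335 genes reached it in ES cells with OHT alone and 28 untreated alone, and 179 and 86 in FLICs. Such a gene was kept through the condition in which it is high. Genes named below that reached 1 CPM in ES cells with OHT alone include Otx2, Osgin1, Gbp2, Fbln5, Greb1, Ptgs2, Plat and Acta2. Those that reached it in FLICs with OHT alone include Dusp27, Axin2 and Nkd1, and those in untreated FLICs alone include Greb1 and Fgf4. Terf2 reached it in untreated cells alone in both cell types. Gene lists are read beside the median or the share of all genes under the same scaling.

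No gene passed the test of the response difference itself. In edgeR's quasi-likelihood test, fitted over 15535 genes and the 6 libraries, 0 genes had an adjusted p under 0.05, and the smallest adjusted p was 0.638. An unadjusted p under 0.05 was found for 638 of the 11217 genes (5.69%), with 421 higher in FLICs (3.75%) and 217 lower (1.93%). DESeq2 called 21 genes, 12 of them among the 10832 genes kept that it tested: 1 higher (0.00923%) and 11 lower (0.102%). The edgeR spread rests on 2 residual degrees of freedom, both from ES cells, and the single FLICs libraries are assumed to vary like ES cell libraries. Without OHT-treated ES cell replicate 1 or 2, where the spread rests on the untreated pair alone, edgeR called 2804 and 2047 genes. On simulated counts for this comparison, 6.8% of 2-fold, 68.8% of 4-fold and 94.4% of 8-fold differences were recovered among 15535 genes, and 9.52% of the calls were false. The simulated FLICs libraries took the spread fitted for each gene, which comes from ES cells, so that assumption was built in and not checked. The changed genes had at least 1 CPM in untreated cells of both types, so the rates do not cover lower levels.

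**Figure D1:**
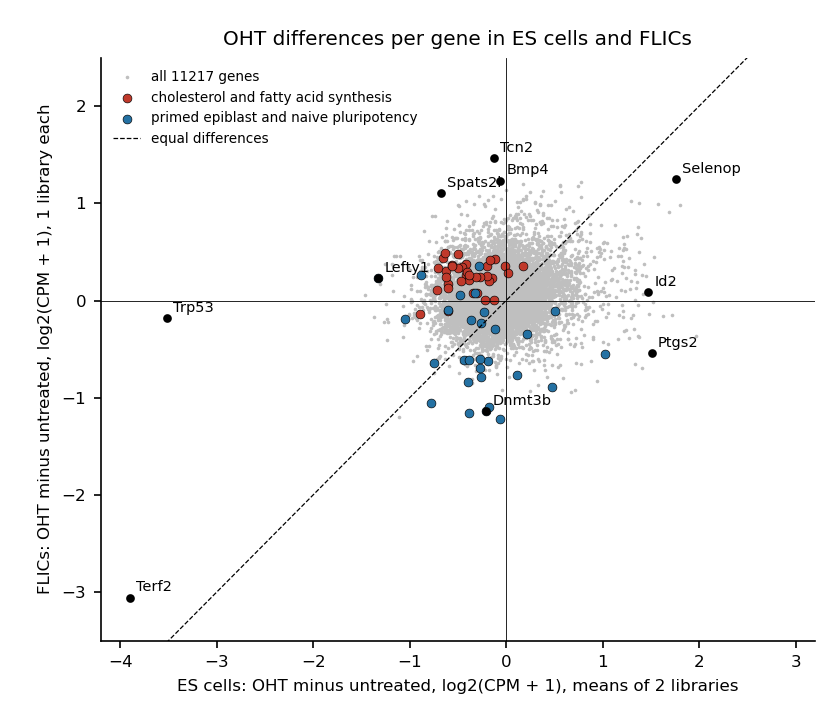
Difference with OHT in FLICs (y axis, 1 library per condition) against the difference of the ES cell means (x axis, 2 libraries each), both in log2(CPM + 1); each point is 1 of 11217 genes, and the dashed line marks equal differences. Lipid synthesis genes (red) lie mostly at the upper left, most pluripotency genes (blue) lie below 0 in FLICs, and Terf2 is far down in both.

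A FLICs minus ES value of 1 or more was seen for 150 genes (1.34%) and of -1 or less for 86 (0.767%). Among the 150, the 2 responses had opposite signs in 141, and the larger part came from ES cells in 87 and from FLICs in 63. Only 11 of the 150 differed by 1 or more in FLICs themselves. Among the 86, opposite signs were seen in 66 and the larger part came from ES cells in 71. Picking genes by a large difference between mostly small responses favours opposite signs, so these counts follow in part from the rule. By a stricter measure, FLICs were opposed to all 4 ES cell differences in 17.3% of all genes with FLICs higher and 6.65% with FLICs lower. Of those 86, 8 were called higher with OHT in ES cells by edgeR, beside 24 higher (0.214%) and 1 lower (0.00892%) of all genes kept, and 1 differed by 1 or more in FLICs.

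Genes of cholesterol synthesis stood higher with OHT in FLICs and lower in ES cells. This pathway builds sterols from acetyl units through mevalonate and squalene, and its genes are switched on together by SREBP2 when membranes are short of sterol. Of 25 listed genes, 24 were kept. In FLICs 24 of the 24 were higher with OHT, beside 55.6% of all genes, and 23 of them lay above all 4 ES cell differences and none below, beside 39.5% and 19% of all genes. In 18 of the 24 all 4 ES cell differences were below 0 while FLICs were above 0, beside 17.3% of all genes. The median FLICs minus ES was 0.67, or 0.56 above the median of all genes, and that excess was 0.55 with either other scaling. Under library totals 19 of 24 lay above and none below, beside 24.7% and 30.9% of all genes, and 13 were opposed in sign. None had an adjusted p under 0.05, and 10 of 24 had an unadjusted edgeR p under 0.05, each higher in FLICs, beside 3.75% of all genes.

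The promoter windows of 3 of the 4 cholesterol genes with the largest FLICs minus ES are shown because the members of this list lie on one side. They are from RefSeq on GRCm38.p6, each the 250 bases before the annotated start, read 5′ to 3′ on the gene's strand. Capitals mark the CCAAT box bound by NF-Y (ATTGG where it lies on the other strand) and the SREBP element TCACNCCAC. Nsdhl encodes a sterol dehydrogenase (chrX:72918271-72918520, plus strand), Hmgcs1 the HMG-CoA synthase at the start of the mevalonate branch (chr13:119690101-119690350, plus strand) and Tm7sf2 a sterol reductase (chr19:6067851-6068100, minus strand).
Nsdhl: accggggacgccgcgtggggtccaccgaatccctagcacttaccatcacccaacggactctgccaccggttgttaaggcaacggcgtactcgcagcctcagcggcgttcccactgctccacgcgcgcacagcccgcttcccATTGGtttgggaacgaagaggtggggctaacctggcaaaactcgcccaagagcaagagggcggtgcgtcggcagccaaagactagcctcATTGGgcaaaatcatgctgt
Hmgcs1: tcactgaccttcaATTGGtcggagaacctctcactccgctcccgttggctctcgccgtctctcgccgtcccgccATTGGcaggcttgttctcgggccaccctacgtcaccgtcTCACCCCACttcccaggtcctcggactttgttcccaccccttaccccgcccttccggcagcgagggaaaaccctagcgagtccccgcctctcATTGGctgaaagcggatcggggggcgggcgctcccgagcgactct
Tm7sf2: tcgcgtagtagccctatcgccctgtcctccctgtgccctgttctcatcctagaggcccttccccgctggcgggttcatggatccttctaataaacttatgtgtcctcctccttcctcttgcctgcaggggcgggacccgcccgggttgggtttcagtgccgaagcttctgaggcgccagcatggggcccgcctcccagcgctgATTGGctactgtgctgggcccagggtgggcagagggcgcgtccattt
Nsdhl has 2 CCAAT boxes, Hmgcs1 has 3 with 1 SREBP element that overlaps none of them, and Tm7sf2 has 1. RefSeq windows were found for 17 of the 24 genes, 20 windows in all. On either strand, CCAAT was in 16 of the 20 (80%) against 33.8% of all 32851 windows, and the SREBP letters were in 1 (5%) against 1.05%. CATTCC, the TEAD element, was in none of the 20 against 12.6% of all windows, and TGANTCA, the AP-1 element, was in 2 (10%) against 6.75%. These are matches of letters in a short window and no record of binding.

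Nsdhl read 35.6 and 36.3, then 20.3 and 22.98 CPM in ES cells, and 113, then 143 CPM in FLICs. Both OHT-treated ES cell libraries were below both untreated ones, and the ES cell differences ran from -0.81 to -0.61 against 0.33 in FLICs. Its edgeR response difference was 1.07 on the log2 scale (SE 0.23, unadjusted p = 0.0042, adjusted p = 0.638). Hmgcs1 read 296 and 368, then 145 and 314 CPM in ES cells, and 471, then 583 CPM in FLICs. Its OHT-treated ES cell libraries disagreed, with 314 CPM lying above the lower untreated library. Sqle, the squalene epoxidase, read 66.1 and 79.8, then 42.9 and 55.7 CPM in ES cells, and 142, then 184 CPM in FLICs. Here the ES cell groups did not overlap. Tm7sf2 read 9.73 and 8.76, then 5.52 and 5.76 CPM in ES cells, and 17.7, then 21.1 CPM in FLICs, again with no overlap. Srebf2, the gene of SREBP2, had differences of -0.66 to -0.27 in ES cells and 0.21 in FLICs. Ebp, a sterol isomerase, was the one gene inside the ES cell range, and Hsd17b7 was higher with OHT in both cell types (0.16 to 0.19 in ES cells, 0.36 in FLICs).

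Fatty acid synthesis and desaturation genes showed the same split. All 12 listed genes were kept, and 10 were higher with OHT in FLICs, beside 55.6% of all genes. Of the 12, 11 lay above all 4 ES cell differences and none below, beside 39.5% and 19% of all genes. In 9 of the 12 the signs were opposed, beside 17.3% of all genes. With library totals 6 were opposed and 10 lay above, beside 24.7% of all genes above. An unadjusted edgeR p under 0.05 was found for 6, each higher in FLICs, beside 3.75% of all genes. Their median FLICs minus ES was 0.62, or 0.50 above all genes. Scd1 and Scd2 encode stearoyl-CoA desaturases, and Fads1 and Fads2 the desaturases of polyunsaturated fatty acids. Scd2 read 309 and 285, then 242 and 151 CPM in ES cells, and 632, then 889 CPM in FLICs. Fads2 read 77.7 and 78.6, then 43.5 and 55.8 CPM in ES cells, and 255, then 345 CPM in FLICs. Fads1 read 49.8 and 48.8, then 34.0 and 32.3 CPM in ES cells, and 162, then 208 CPM in FLICs. In these 3 genes the OHT-treated ES cell libraries were below the untreated ones and the OHT-treated FLICs library was above its control. Fasn, the fatty acid synthase, was lower with OHT in both cell types, at 1386 and 1480 CPM against 925 and 643 CPM in ES cells and at 523 against 474 CPM in FLICs. Acaca, the carboxylase before it, was also lower in both. RefSeq windows for 9 of the 12 genes held CCAAT in 6 of 12 (50%) and the SREBP letters in none.

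**Figure D2:**
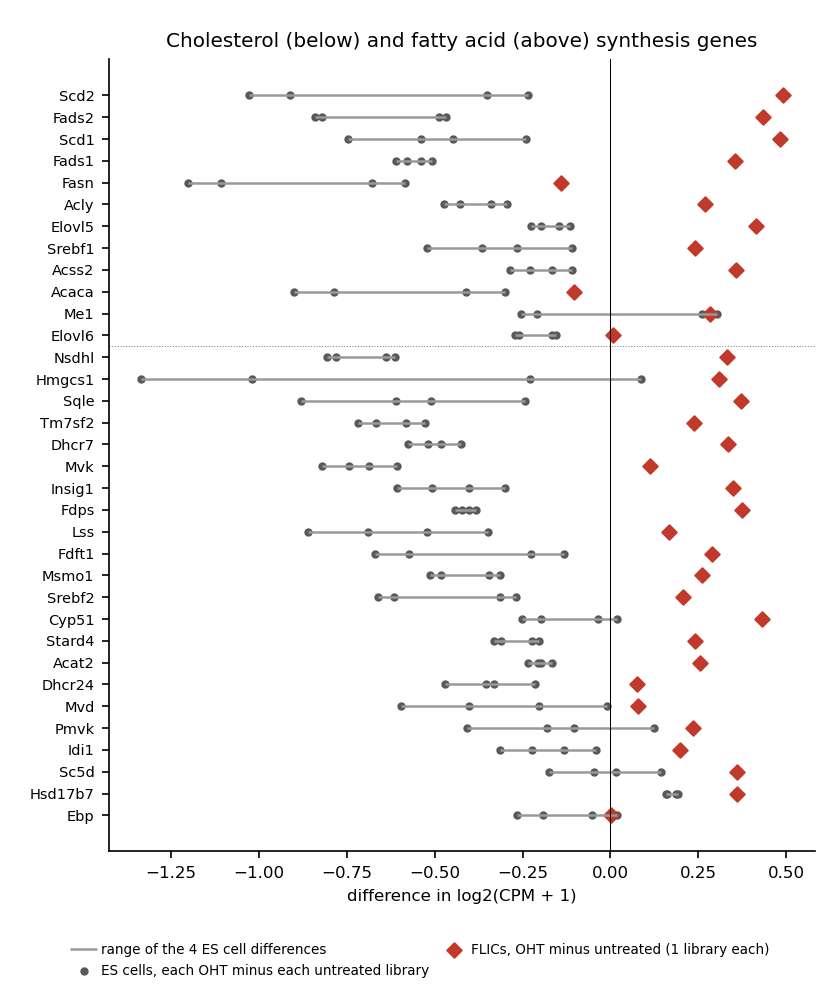
Difference with OHT in log2(CPM + 1) (x axis) for genes of cholesterol and fatty acid synthesis (y axis); small points are the 4 ES cell differences with their range, and diamonds are FLICs, 1 library per condition. In each gene drawn except Ebp and Me1 the diamond lies to the right of all 4 ES cell points.

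Genes of the primed epiblast went the other way, lower in FLICs with OHT than the ES cell differences. Of 21 genes in the table, 16 were kept, and 14 of these were lower with OHT in FLICs. Of the 16, 10 lay below all 4 ES cell differences and 2 above, beside 19% and 39.5% of all genes. In the list, 2 genes were kept only through untreated FLICs, which sets their fall there, and 1 only through OHT-treated ES cells. The median FLICs minus ES was -0.50, or -0.62 relative to all genes. With relative log expression factors and with library totals 12 lay below, beside 24.9% and 30.9% of all genes. An unadjusted edgeR p under 0.05 was found for 6 lower and 1 higher, beside 1.93% and 3.75% of all genes. The median within FLICs was -0.62 and within ES cells -0.29.

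Otx2, a transcription factor of the primed epiblast, read 0.331 and 0.186, then 1.72 and 1.41 CPM in ES cells, and 6.48, then 4.09 CPM in FLICs. Having passed the threshold through the OHT-treated ES cell libraries, it had to be higher there; its edgeR response difference was -3.27 (SE 0.56, adjusted p = 0.638), from few counts, and it lends the list no support. Etv4, an ETS factor downstream of FGF signalling, read 103 and 69.9, then 104 and 63.8 CPM in ES cells, and 40.7, then 16.9 CPM in FLICs. The ES cell groups overlapped while the FLICs difference was -1.22. Sox3, a SOX factor of early ectoderm, read 6.45 and 3.35, then 8.64 and 5.53 CPM in ES cells, and 3.61, then 1.49 CPM in FLICs. Dnmt3b, a de novo DNA methyltransferase, differed by -0.42 to 0.00 in ES cells and by -1.14 in FLICs, Utf1 by -0.37 to 0.03 and -1.09, and Zscan10 by -0.50 to -0.26 and -1.16. Lefty1, an inhibitor of Nodal, ran against the list: it read 73.3 and 58.1, then 28.1 and 23.01 CPM in ES cells, and 4.66, then 5.63 CPM in FLICs. Both OHT-treated ES cell libraries were under the untreated ones, and FLICs differed by 0.23.

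Naive pluripotency genes were split. Of 23 genes, 13 were kept, with 5 above and 5 below the ES cell differences. The median FLICs minus ES was 0.03, which turned to -0.04 with relative log expression factors and to -0.12 with library totals. Klf4, which helps to hold the naive state, read 319 and 302, then 206 and 138 CPM in ES cells, and 16.8, then 20.2 CPM in FLICs. Its ES cell groups did not overlap and FLICs lay on the other side of 0. Pou5f1, the gene of Oct4, read 1288 and 1316, then 1368 and 1441 CPM in ES cells, and 80.9, then 47.3 CPM in FLICs. It was slightly higher in both OHT-treated ES cell libraries and differed by -0.76 in FLICs. Sall4, Nanog, Sox2 and Fgf4 differed by -0.79 to -0.60 in FLICs and between -0.54 and 0.02 in ES cells. Fgf4 was kept only through untreated FLICs, which sets its fall there. The summed level of the 23 naive markers in FLICs was 293 CPM without and 237 CPM with OHT, that of the primed list 235 and 134 CPM, and Zfp42 had a count of 0 in both FLICs libraries (3 counts are 0.0926 and 0.0686 CPM). In bulk RNA, fewer cells of a type and less RNA per cell cannot be told apart, and the part of remaining pluripotent cells in these differences was not tested.

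**Figure D3:**
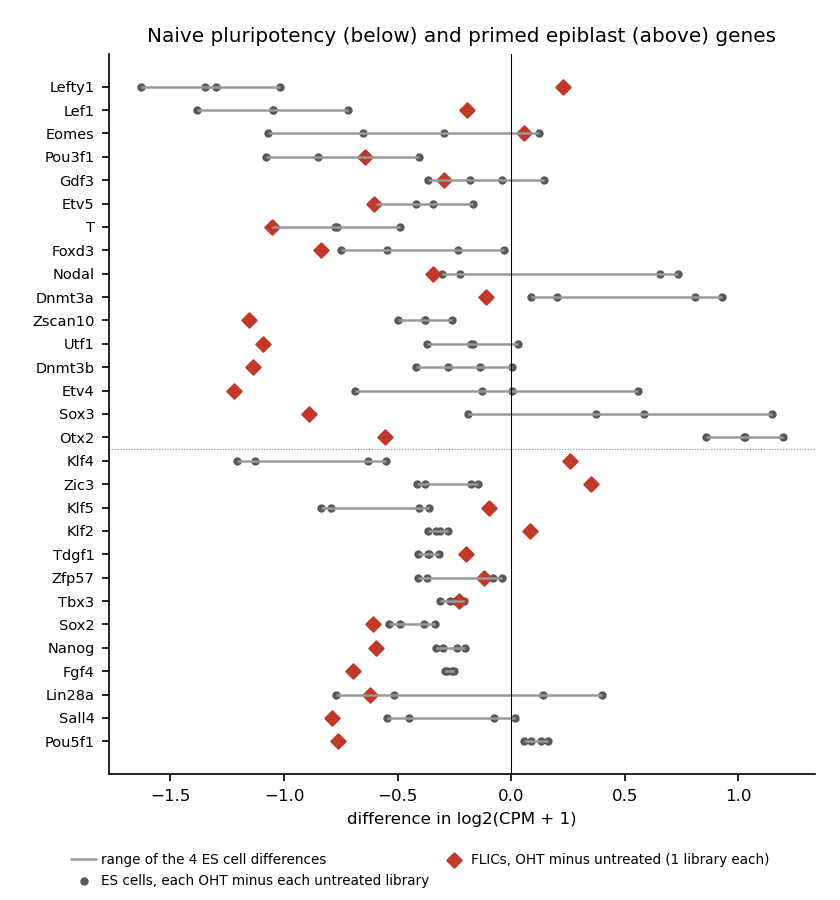
Difference with OHT in log2(CPM + 1) (x axis) for 13 naive pluripotency and 16 primed epiblast genes (y axis); small points are the 4 ES cell differences with their range, and diamonds are FLICs, 1 library per condition. Of the primed genes 10 diamonds lie left of all ES cell points, and Lefty1 and Lef1 lie to the right.

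The genes with the smallest p-values mixed both directions. Spats2l, a gene of stress granule assembly (ENSMUSG00000038305, chromosome 1, 57774162 to 57948394), read 4.34 and 4.55, then 2.34 and 2.47 CPM in ES cells, and 13.6, then 30.3 CPM in FLICs. It was lower in both OHT-treated ES cell libraries and higher in FLICs, with an edgeR response difference of 2.05 (SE 0.30, unadjusted p = 0.000559, adjusted p = 0.638). Dusp27, of the dual-specificity phosphatase family (chromosome 1, 166098148 to 166127922), read 211 and 205, then 167 and 174 CPM in ES cells, and 0.803, then 2.81 CPM in FLICs. Its direction was the same as that of Spats2l, at 2.09 by edgeR (SE 0.29, unadjusted p = 0.000387, adjusted p = 0.638), and it was the 1 gene that DESeq2 called higher. Dusp27 was kept only through OHT-treated FLICs, which sets its rise there. Pim2, a survival kinase on chromosome X (7878262 to 7883432), read 13.5 and 14.5, then 23.2 and 23.8 CPM in ES cells, and 29.1, then 14.9 CPM in FLICs. Here the directions were opposed the other way, at -1.72 by edgeR (SE 0.26, unadjusted p = 0.000643, adjusted p = 0.638).

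Osgin1 and Gbp2 completed the 5 smallest p-values, and in both the ES cell difference was the larger. Osgin1, an oxidative stress gene, read 0.331 and 0.213, then 2.84 and 2.16 CPM in ES cells, and 28.0, then 33.7 CPM in FLICs. Gbp2, an interferon-induced GTPase, read 0.331 and 0.373, then 3.46 and 3.25 CPM in ES cells, and 14.045, then 27.2 CPM in FLICs. Both were called higher with OHT in ES cells (edgeR adjusted p = 0.026 and 0.0106), and FLICs differed by 0.26 and 0.91. Both were kept only through the OHT-treated ES cell libraries, which sets their rise there. DESeq2 called Osgin1, Pim2, Ptgs2, S100a6, Nr2f2, Gm5662, Npnt, Id2, Plat, Nefl and Foxi3 lower. Like Osgin1, Ptgs2 and Plat reached 1 CPM in ES cells with OHT alone. Ptgs2, the inducible cyclooxygenase, read 0.530 and 0.719, then 2.496 and 5.10 CPM in ES cells, and 499, then 343 CPM in FLICs. S100a6, a calcium-binding protein, read 1.66 and 2.32, then 7.74 and 7.37 CPM in ES cells, and 996, then 984 CPM in FLICs. In both, the ES cell libraries with OHT were far under the level of FLICs, and edgeR gave no adjusted p under 0.05. Nefl and Foxi3 were lower in FLICs, at 7.01 and 3.64 CPM and at 3.09 and 1.53 CPM, and higher in ES cells, by 0.31 to 0.53 and 1.02 to 1.79.

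**Figure D4:**
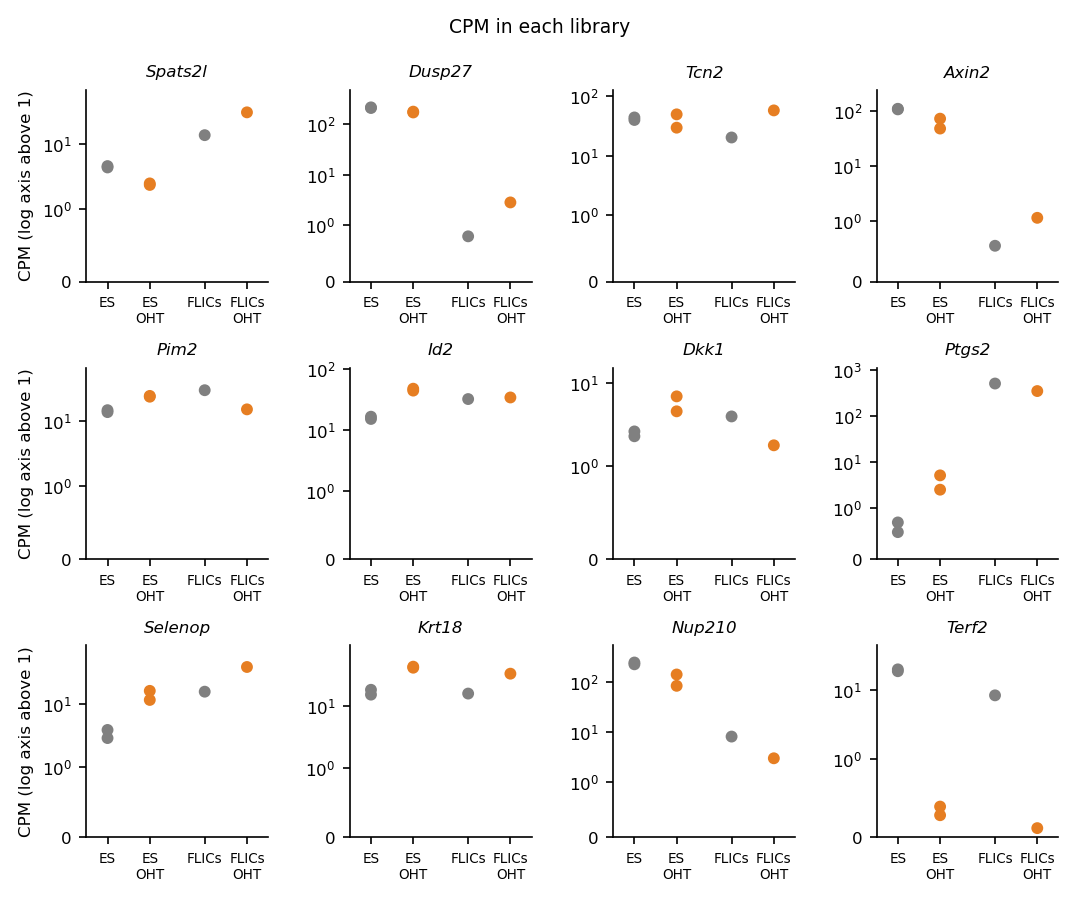
CPM in each of the 6 libraries (y axis, logarithmic above 1 CPM and linear below) for 12 genes; grey is untreated, orange is OHT, and ES cells have 2 points per condition. Spats2l, Dusp27 and Axin2 are lower in ES cells and higher in FLICs with OHT, Pim2 and Dkk1 are the reverse, Selenop and Krt18 are higher and Nup210 and Terf2 lower in both.

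Opposed responses in which FLICs were higher were seen for 1946 genes (17.3%), and in which FLICs were lower for 746 (6.65%). Named by the size of the smaller response, the first group was Pdk2, Hps1, Pltp, Pycr1, Pip4k2a and Ogdhl. Pdk2, a kinase that restrains pyruvate dehydrogenase, read 6.62 and 7.45, then 3.18 and 4.08 CPM in ES cells, and 4.78, then 7.82 CPM in FLICs. Ogdhl, an enzyme like oxoglutarate dehydrogenase, read 127 and 113, then 82.5 and 81.3 CPM in ES cells, and 21.3, then 36.1 CPM in FLICs. For Pltp, the phospholipid transfer protein, the levels were 40.9 and 39.8, then 22.1 and 28.0 CPM in ES cells, and 72.7, then 102 CPM in FLICs. The ES cell groups did not overlap in these genes, which follows from the rule that named them. The second group was Pim2, Ptprn, Peg10, Plk3, Enpp3 and Col2a1. Peg10, a placental gene derived from a retrotransposon, read 193 and 247, then 559 and 372 CPM in ES cells, and 2714, then 1993 CPM in FLICs. Col2a1, the collagen of cartilage, read 4.57 and 5.83, then 8.42 and 9.64 CPM in ES cells, and 153, then 111 CPM in FLICs. These 12 genes kept their signs under both other scalings, and their unadjusted edgeR p-values ran from 0.000643 to 0.0231. They were picked by the size of these same differences, so the p-values lend no further support.

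Shared responses were seen for 1295 genes higher (11.5%) and 1887 lower (16.8%). Selenop, the selenium carrier, read 3.91 and 2.90, then 16.4 and 11.7 CPM in ES cells, and 15.9, then 39.2 CPM in FLICs. Krt18, a keratin of simple epithelia, read 15.4 and 18.5, then 43.7 and 42.0 CPM in ES cells, and 16.1, then 33.6 CPM in FLICs. Both were called higher with OHT in ES cells (edgeR adjusted p = 0.0475 and 0.0414) and were higher in FLICs as well. Myl9, S100a13, Crabp2 and Ddit3 were the other genes named, with FLICs differences of 0.60 to 0.77. Nup210, a nuclear pore protein, read 248 and 228, then 142 and 84.3 CPM in ES cells, and 8.06, then 2.95 CPM in FLICs, lower in both. Phlpp1, Lrp8, Hirip3, Pik3c2b and Crocc were also lower in both, with FLICs differences of -0.64 to -0.46.

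Wnt pathway genes included several that were lower in ES cells and higher in FLICs. Wnt ligands stabilise beta-catenin, which switches on feedback inhibitors such as Axin2 and Nkd1. Of 22 Wnt pathway genes, 12 were kept, 7 lay above the ES cell differences and 1 below, and the median FLICs minus ES was 0.40, or 0.28 above all genes. Of the 12, 3 were kept only through OHT-treated FLICs, which sets their rise there, and 1 only through OHT-treated ES cells. Axin2 and Nkd1 are among the 3, so their rise in FLICs lends the list no support. An unadjusted edgeR p under 0.05 was found for 4 higher and 1 lower, beside 3.75% and 1.93% of all genes. Axin2 read 109 and 106, then 71.8 and 47.4 CPM in ES cells, and 0.586, then 1.12 CPM in FLICs. Nkd1 read 4.27 and 3.67, then 1.62 and 2.23 CPM in ES cells, and 0.556, then 1.85 CPM in FLICs. Tcf7, a factor that binds beta-catenin, read 62.3 and 59.2, then 39.6 and 36.6 CPM in ES cells, and 10.6, then 13.02 CPM in FLICs. In these 3 genes the ES cell groups did not overlap, and the FLICs levels of Axin2 and Nkd1 are near 1 CPM. Dkk1, a secreted Wnt antagonist, was the reverse, at 2.61 and 2.29, then 6.86 and 4.55 CPM in ES cells, and 3.95, then 1.78 CPM in FLICs. The ES cell median of the list was -0.09 and turned to 0.02 with library totals, and the list's median ranged from 0.20 without OHT-treated replicate 2 to 0.64 for genes of at least 5 CPM. Without OHT-treated replicate 1 it was 0.59.

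For BMP ligands and their Id targets, 11 of 21 genes were kept, 2 above and 4 below, with a median FLICs minus ES of -0.28. That median was -0.02 without OHT-treated replicate 1. Id2, a direct target of BMP signalling, read 15.2 and 16.5, then 47.3 and 44.03 CPM in ES cells, and 32.0, then 34.0 CPM in FLICs. The ES cell groups were far apart and FLICs differed by 0.08 (edgeR response difference -1.44, unadjusted p = 0.0012, adjusted p = 0.638). Bmp4, a ligand, was the reverse: it read 24.1 and 17.4, then 24.1 and 15.9 CPM in ES cells, and 17.1, then 41.6 CPM in FLICs. Of the Nodal, Lefty and TGF-beta list, 13 of 18 were kept, 8 above and 2 below, with a median of 0.17, or 0.05 above all genes. It ranged from 0.02 with library totals to 0.64 for genes of at least 5 CPM, and was 0.36 without OHT-treated replicate 2.

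**Figure D5:**
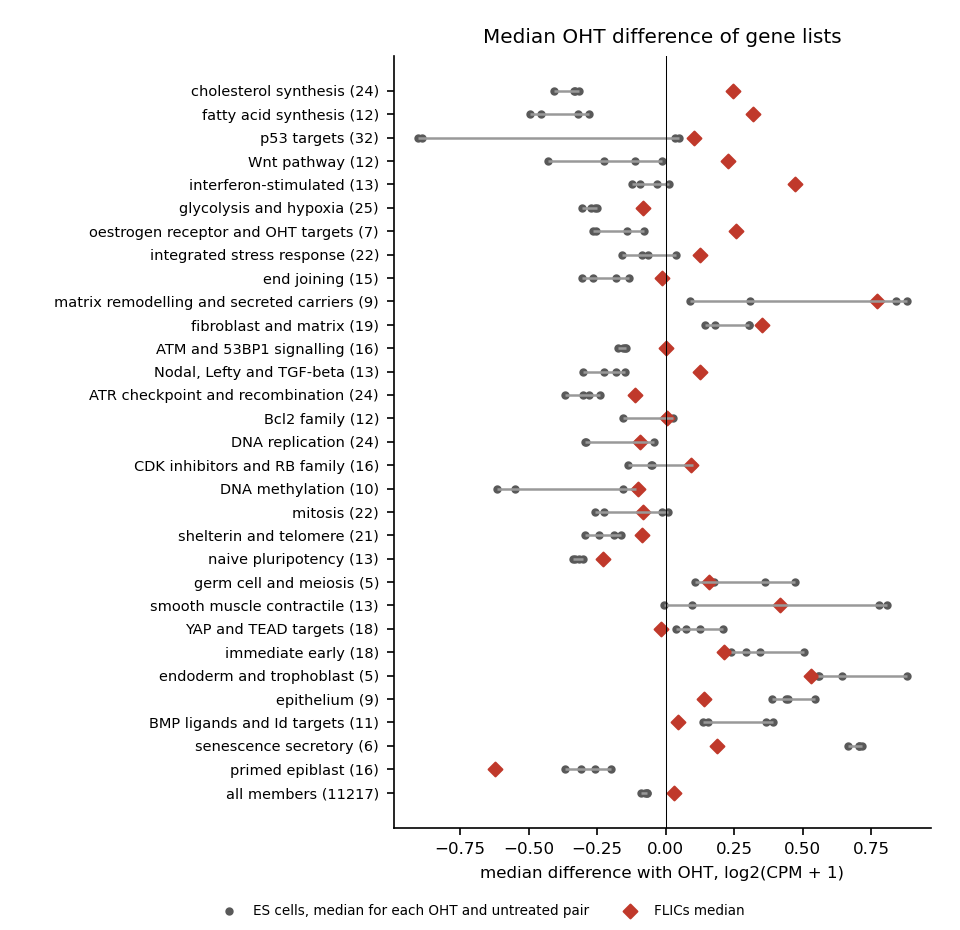
Median difference with OHT in log2(CPM + 1) (x axis) of each gene list with at least 5 genes kept (y axis, with that number), sorted by the median FLICs minus ES; small points are the 4 ES cell pairings with their range, and diamonds are FLICs. Cholesterol and fatty acid synthesis lie at 0.25 and 0.32 in FLICs and below 0 in all 4 pairings, primed epiblast genes lie at -0.62 in FLICs, and the p53 targets have the widest ES cell range.

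Trp53 had the largest FLICs minus ES value of all genes, 3.34, and was picked out after its values were seen. It read 299 and 345, then 8.39 and 83.1 CPM in ES cells, and 8.98, then 7.82 CPM in FLICs. Nearly all of the difference lay in ES cells, and the FLICs levels were close to that of the lower OHT-treated ES cell library. The edgeR response difference was 2.62 (SE 1.62, unadjusted p = 0.159, adjusted p = 0.799). Of the p53 targets 32 of 35 were kept, 15 above and 1 below, beside 39.5% and 19% of all genes. With library totals 8 lay above and 3 below, beside 24.7% and 30.9% of all genes. Of the 32, 2 were kept only through OHT-treated FLICs and 1 only through OHT-treated ES cells, which sets their direction there. The list's median FLICs minus ES was 0.48, or 0.36 above all genes. The median ES cell difference was -0.90 and -0.89 with OHT-treated replicate 1 and 0.05 and 0.03 with replicate 2. The list's median was thus 0.06 without OHT-treated replicate 1 and 0.99 without replicate 2. Cdkn1a, the cell cycle inhibitor p21, read 37.4 and 37.3, then 19.1 and 32.9 CPM in ES cells, and 1.79, then 3.29 CPM in FLICs. Apaf1, of the apoptosome, read 36.7 and 43.1, then 15.7 and 28.0 CPM in ES cells, and 22.2, then 30.0 CPM in FLICs. In both genes each OHT-treated ES cell library was below each untreated one. Ccng1 (-2.71 to 0.10) and Btg2 (-1.65 to 0.68) had ES cell differences on both sides of 0 and were 0.17 and 0.97 in FLICs.

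Most mesenchymal genes kept stood higher with OHT in FLICs. Of the fibroblast and matrix list, 19 of 37 genes were kept, 18 were higher in FLICs, and 10 were higher in FLICs and in all 4 ES cell differences. Of those 10, 5 were kept only through the OHT-treated ES cell libraries, which sets their direction there. The list's median FLICs minus ES was 0.19, or 0.07 above all genes, and ranged from 0.055 with a pseudocount of 0.25 to 0.41 for genes of at least 5 CPM. Col1a1, the main fibrillar collagen, read 0.993 and 1.25, then 1.28 and 1.80 CPM in ES cells, and 495, then 881 CPM in FLICs. Fn1, fibronectin, read 1884 and 1930, then 1763 and 1115 CPM in ES cells, and 4763, then 6672 CPM in FLICs, lower in ES cells and higher in FLICs. Fbln5, an elastic fibre protein, read 0.695 and 0.612, then 1.72 and 2.12 CPM in ES cells, and 63.8, then 66.9 CPM in FLICs, higher in ES cells, with 0.07 in FLICs. Of the smooth muscle contractile list 13 of 18 were kept, 12 were higher in FLICs, 2 lay above and 5 below, and the median FLICs minus ES was -0.07, which was -0.49 without OHT-treated replicate 1 and 0.02 without replicate 2. Of the 13 smooth muscle genes kept, 2 were kept only through the OHT-treated ES cell libraries. Acta2, smooth muscle actin, read 0.728 and 0.825, then 2.15 and 1.96 CPM in ES cells, and 5936, then 7921 CPM in FLICs. Tcn2, the vitamin B12 carrier of the list of secreted carriers, read 39.8 and 43.9, then 29.6 and 49.5 CPM in ES cells, and 20.2, then 57.6 CPM in FLICs, so ES cells overlapped and FLICs differed by 1.46. Of its list, 9 of 19 genes were kept, all 9 higher in FLICs, 3 above and 4 below the ES cell differences. Of the 9, 3 were kept only through the OHT-treated ES cell libraries, which sets their direction there. Of all genes, 55.6% were higher in FLICs, 39.5% lay above and 19% below. Fibroblast and matrix markers summed to 18808, then 23932 CPM in FLICs, and the part of cell composition in these values was not tested.

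Immediate early, YAP and TEAD, and senescence secretory genes lay below the ES cell differences more often than above. The counts were 8 below and 2 above of 18 immediate early genes kept, 8 and 2 of 18 YAP and TEAD targets, and 4 and 1 of 6 senescence genes, and the medians of FLICs minus ES were -0.11, -0.11 and -0.50. They ranged from -0.24 to -0.097, from -0.24 to -0.054 and from -0.65 to -0.26 over the alternatives, with the lowest value of each under library totals and the highest for genes of at least 5 CPM. Of all genes, 19% lay below and 39.5% above. Of the 18 immediate early genes, 2 were kept only through the OHT-treated ES cell libraries, which sets their direction there. Plaur, the urokinase receptor, read 16.1 and 15.1, then 27.2 and 60.2 CPM in ES cells, and 231, then 188 CPM in FLICs. Icam1, an adhesion molecule called higher in ES cells, differed by 1.07 to 1.37 there and by 0.52 in FLICs. Ccn1, a matricellular YAP target, differed by 0.61 to 1.70 and by 0.20. Fosl1, an AP-1 subunit, differed by 0.00 to 1.08 in ES cells and by -0.68 in FLICs.

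Interferon-stimulated genes were higher with OHT in FLICs in 13 of 13 genes kept of 32, with 8 above and 1 below the ES cell differences, beside 55.6%, 39.5% and 19% of all genes. Of the 13, 2 were kept only through OHT-treated FLICs and 2 only through OHT-treated ES cells, which sets their direction there. In 4 of the 13 all 4 ES cell differences were also above 0. Of these 4, 2 were kept only through OHT-treated ES cells and 1 only through OHT-treated FLICs. The list's median was 0.47 in FLICs and -0.09 in ES cells, which turned to 0.05 with library totals. Its median FLICs minus ES was 0.39, or 0.27 above all genes. Xaf1, a pro-apoptotic interferon target, read 4.7996 and 5.88, then 3.00 and 4.67 CPM in ES cells, and 2.59, then 5.605 CPM in FLICs. Irf9, of the factor that interferon activates, read 15.1 and 13.6, then 13.7 and 12.7 CPM in ES cells, and 11.7, then 17.6 CPM in FLICs, with overlap in ES cells. For glycolysis and hypoxia genes, 25 of 27 were kept, 12 above and 1 below, with medians of -0.08 in FLICs and -0.30 in ES cells. Pfkp, a phosphofructokinase, differed by -0.69 to -0.42 in ES cells and 0.15 in FLICs, and Slc16a3, the lactate exporter, by -1.50 to -0.96 and -0.40. Integrated stress response genes had 11 above and 4 below of 22 kept of 23, not far from the 39.5% and 19% of all genes. Trib3, a pseudokinase induced by ATF4, differed by -0.35 to 0.13 in ES cells and 0.81 in FLICs.

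Lists of the cell cycle, telomeres and repair had medians near that of all genes. The lists were mitosis (8 above, 2 below of 22), DNA replication (6 and 3 of 24), CDK inhibitors and the RB family (6 and 3 of 16), shelterin and telomere (8 and 4 of 21), ATM and 53BP1 signalling (8 and 0 of 16), end joining (8 and 0 of 15), ATR and recombination (12 and 1 of 24), DNA methylation (4 and 3 of 10) and the Bcl2 family (4 and 1 of 12). Their medians of FLICs minus ES lay between 0.03 and 0.20, beside 0.12 over all genes, and those of mitosis, replication, the RB family, telomere and methylation lists turned below 0 with library totals. Tert, the reverse transcriptase of telomerase, differed by -1.27 to -0.18 in ES cells and 0.17 in FLICs, and Nhp2, of the telomerase RNA particle, by 0.06 to 0.50 and -0.52. Orc1, which marks replication origins, differed by 0.31 to 0.42 in ES cells and -0.18 in FLICs. Mki67, the proliferation marker, differed by -1.08 to -0.38 and -0.33. Terf2 differed by -3.999 to -3.80 in ES cells and -3.06 in FLICs, so that FLICs minus ES was 0.84 on log2(CPM + 1), while edgeR's own log2 scale gave -0.31 (SE 0.50, adjusted p = 0.964), and the added 1 compresses levels under 1 CPM.

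Lists for other uses and other cell types held few genes expressed in both. Of 15 oestrogen receptor genes and OHT targets 7 were kept, 3 above and 1 below, with a median of 0.25 that ranged from 0.099 with library totals to 0.48 without OHT-treated replicate 2 and was 0.43 without replicate 1. Of these, Greb1, an oestrogen receptor target, differed by 0.01 to 0.44 in ES cells and -0.56 in FLICs, Xbp1 by -0.30 to -0.17 and 0.39, and Nrip1 by -0.54 to -0.31 and 0.26. Greb1 was kept only through OHT-treated ES cells and untreated FLICs, which sets its direction in both cell types. Of 30 two-cell embryo genes 2 were kept, Gm8300 and Eif1a, and of 25 germ cell genes 5. Gm8300 read 5.26 and 5.32, then 12.5 and 15.5 CPM in ES cells, and 7.22, then 5.65 CPM in FLICs, and it has near-identical copies, so that its reads may be shared. Epithelial markers were 6 below and 1 above of 9 kept, beside 19% and 39.5% of all genes. In FLICs 5 of the 9 were higher with OHT and 4 lower, with a median of 0.14. Epcam differed by 0.13 to 0.55 in ES cells and -0.62 in FLICs, and Krt18 by 1.14 to 1.44 and 1.02. Of the 9, 1 was kept only through OHT-treated ES cells and 1 only through OHT-treated FLICs, which sets their direction there. Endothelial, neural, endoderm and striated muscle markers had 3, 3, 5 and 4 genes kept. Over all 16, 10, 15 and 11 listed genes, kept or not, their summed levels in FLICs were 18.6, then 26.0 CPM, 874, then 981 CPM, 166, then 184 CPM, and 174, then 228 CPM.

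At the threshold of 1 CPM, Rsg1, Zglp1 and Hist1h3a lay just outside at 0.991 CPM in their higher FLICs library, with FLICs minus ES of -0.32, -1.06 and -0.26. Ajm1, Tmem265 and Begain were just inside at 1.001 CPM, with 0.61, 0.42 and -0.03.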

How the data were processed

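Whole-number read counts per gene were deposited by the authors for 6 libraries of TruSeq stranded total RNA; Salmon, DESeq2 and GRCm38 are named, without versions or roles, per the submitters' processing notes. Reads that near-identical or overlapping genes share may have been split in that step. The members and gene lists were chosen with earlier results of these data known. CPM used trimmed mean (TMM) scaling from edgeR 4.0.16 (R 4.3.3), and membership used CPM on library totals. Differences used log2(CPM + 1). The response difference was tested with edgeR's quasi-likelihood test, after its default filter on low counts, with Benjamini-Hochberg adjustment over 15535 genes, and checked on simulated data. DESeq2 1.42.0, voom in limma 3.58.1, other scalings, filters, a pseudocount of 0.25, a replicate block and leaving out each ES cell library were tried. Of 22600 genes, 91 had no symbol. A total of 3 counts corresponded to 0.0686 to 0.118 CPM. Named genes are Terf2, the 5 smallest p-values, up to 6 opposed and 6 shared responses per direction with at least 5 CPM, and up to 4 genes per list with the largest difference; other genes were named after their values were seen. Promoter windows are from RefSeq. Some genes of the cholesterol list are counted in it and are not reported here by name.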

Additional observations from a re-analysis of the deposited data

Results flagged for a closer look

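In 8 gene lists the median difference with OHT had one sign in FLICs and the opposite sign in all 4 ES cell pairings, and whether the lists differ between the cell types was not tested. The median FLICs minus ES, in log2(CPM + 1), was 0.67 for cholesterol synthesis and 0.62 for fatty acid synthesis. It was 0.40 for the Wnt pathway, 0.25 for oestrogen receptor and OHT targets, 0.18 for ATM and 53BP1 signalling and 0.17 for Nodal, Lefty and TGF-beta. It was -0.11 for YAP and TEAD targets and -0.76 for the 2 two-cell genes kept. The opposite sign of the latter rests on Gm8300 alone, since Eif1a was lower in both cell types (-0.086 in FLICs and -0.12 in ES cells). With library totals the ES cell medians turned above 0 for the Wnt list (0.02) and the Nodal list (0.03), and the FLICs median of the ATM list, which was 0.00028, turned to -0.011, and to -0.026 with relative log expression factors. Of the 12 Wnt genes, 3 were kept only through OHT-treated FLICs and 1 only through OHT-treated ES cells. Of the 13 Nodal genes, 2 were kept only through OHT-treated ES cells. Greb1 of the oestrogen list was kept only through OHT-treated ES cells and untreated FLICs. The threshold sets the direction of such genes there.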

How the results depend on the processing

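The count of 0 genes called for the response difference was also 0 with relative log expression factors, with limma-voom, and with no or a stricter filter on low counts, and it was 21 with DESeq2. With the culture number as a replicate block it was 17, and the labels do not say that the numbers pair the libraries. Leaving out each ES cell library gave 0 to 2804 calls; without OHT-treated replicate 1 or 2 the spread rests on the untreated pair. With library totals, 2766 genes lay above and 3462 below the ES cell differences. Leaving out each library gave 5112 to 6224 above and 2542 to 3817 below, since fewer differences are then compared. The response differences of 11 named genes changed sign, and the cause was not tested. With relative log expression factors Dppa4 was -0.035 and Eif1a -0.045; DESeq2 gave -0.034 and -0.045. Nes was 0.055 with limma-voom and 0.052 with the replicate block. Leaving out each ES cell library gave ranges of -0.74 to 0.046 for Nup210, -0.070 to 0.33 for Phlpp1, -0.030 to 0.25 for Hirip3, -0.33 to 0.27 for Cd34, -0.084 to 0.14 for Dppa4, -0.66 to 0.021 for Prdm9, -0.47 to 0.55 for Nes, -0.12 to 2.14 for Cnn1, -0.015 to 0.37 for Acta1, -0.17 to 0.067 for Myh7 and -0.020 to 0.064 for Eif1a. The single FLICs libraries limit every comparison, since no spread within FLICs can be measured.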
